A study of Mus musculus with 36 samples.

Results

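Cytochromes P450 of family 2 are heme enzymes of the endoplasmic reticulum that use oxygen, and electrons passed on by P450 reductase, to hydroxylate or epoxidize drugs, steroids, bile acids and fatty acids. In the mouse the family is spread over clusters of closely related genes, and its liver members are known for their response to foreign compounds, hormones, sex and inflammation. The genes described here are those whose symbol starts with Cyp2 and a letter, apart from Cyp2e1 and Cyp2f2, each represented by its brightest array probe. They number 34 of the 16593 genes with a symbol in the table, and 18 of the 34 were bright enough to be tested.

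The livers came from 36 male C57BL/6J mice without any induced mutation, killed at 9 weeks of age after a fast, with 1 array per mouse. Groups carry the diet of the dam first and that of the pup after weaning last, HF being a high fat and LF a low fat diet with coconut oil as the main fat. HF_HF held 10 mice from 4 birth cages, LF_HF 8 mice from 4 cages, HF_LF 9 mice from 5 cages and LF_LF 9 mice from 4 cages. The HF diet was also poor in carbohydrate, so fat and carbohydrate cannot be told apart. Each birth cage had dams of 1 diet.

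All 7 hepatocyte markers found were bright enough to be tested, with a summed intensity of 98557 to 123679 over the 36 livers. Their single means differed widely, from 89.3 for Fgb and 210 for Alb to 30597.5 for Apoc3. The markers of T and B lymphocytes summed to 326 to 387 over 5 genes, where the median of all values in the table is 71.5 for a single probe. Arrays correlated with each other at medians of 0.979 to 0.991, lowest for HF_HF replicate 1, and no 2 arrays were identical. In whole liver, fewer cells that make an enzyme and less RNA in each cell cannot be told apart.

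Subfamilies differed in how many of their genes passed the filter. A gene was tested when its median intensity over the 36 mice reached 71.5, which is the middle value of the whole table. Both Cyp2a genes passed this filter, as did 6 of 10 Cyp2c genes, 6 of 8 Cyp2d genes, 1 of 5 Cyp2j genes, and Cyp2g1, Cyp2s1 and Cyp2u1. None of the 5 Cyp2b genes passed, nor did Cyp2r1, a vitamin D hydroxylase. Of the 18 genes, 11 had means of 1608 to 12230 over all mice, and the other 7, Cyp2c29, Cyp2c55, Cyp2d13, Cyp2g1, Cyp2j9, Cyp2s1 and Cyp2u1, lay between 74.3 and 191. The intensities hold a background, so differences of these dim genes can understate the change in RNA, and levels of different genes are not set against each other because probes differ in affinity.

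**Figure D1:**
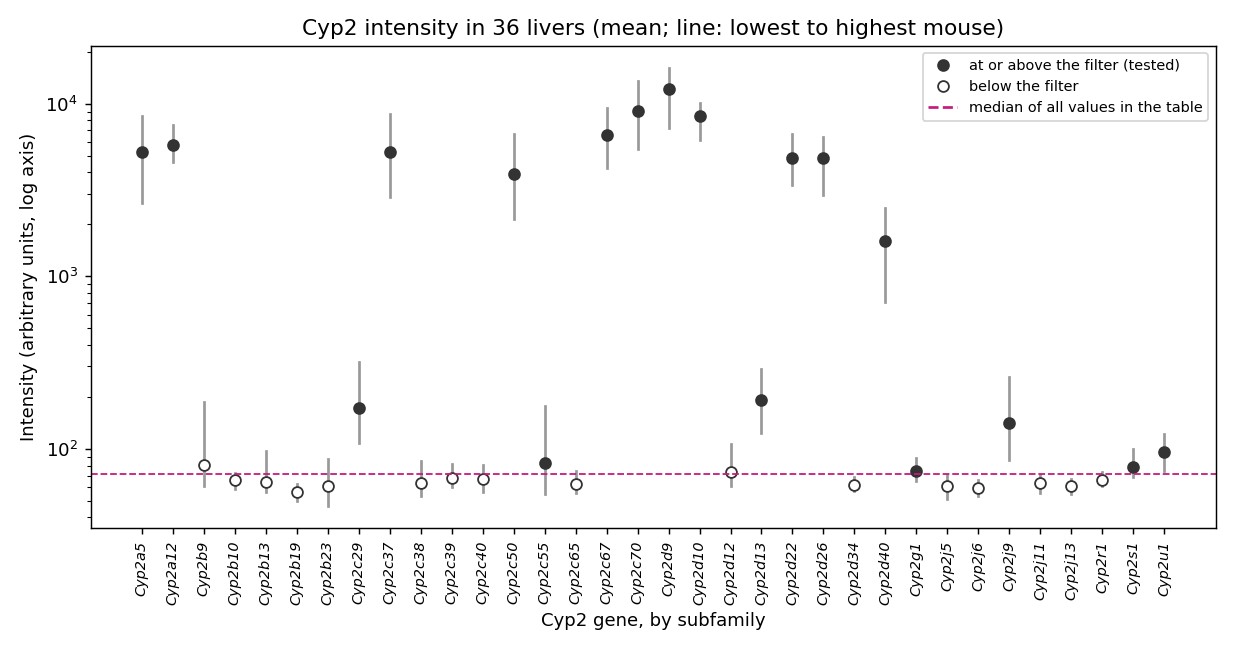
Intensity (log axis) of the 34 Cyp2 genes over the 36 livers, grouped by subfamily, with the mean as a point, the lowest to highest mouse as a line, and the median of all values in the table as a dashed line. The 18 filled points were tested and the 16 open ones lay below the filter, among them all 5 Cyp2b genes.

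The main change followed the diet eaten after weaning, and it was split in direction. Among pups of HF dams, 5 of the 18 genes rose on the HF diet and 2 fell, HF_HF against HF_LF, by limma at an adjusted p under 0.05. Over all 12289 probes tested in this comparison 5.15% rose and 6.11% fell, 11.3% together. Those that rose were Cyp2d40, Cyp2c37, Cyp2c50, Cyp2c70 and Cyp2a12, and those that fell were Cyp2c55 and Cyp2j9. Cyp2c55 reached the filter through its LF-fed mice, with every HF_HF liver below 71.5. Its fall is therefore counted but not weighed against those shares. Among pups of LF dams, LF_HF against LF_LF, Cyp2a12 and Cyp2c37 rose and Cyp2j9 fell, against a background of 1.77% of probes that rose and 1.29% that fell, 3.06% together. These 3 genes thus passed in both comparisons, which share no mice, in the same direction. The median difference of the 18 genes was 0.07 on the log2 scale in pups of HF dams, against -0.01 over all 8535 genes tested, and 0.05 against 0.00 in pups of LF dams. The median absolute difference of the 18 genes was 0.18 in both comparisons, against 0.07 and 0.06 over all genes. It was also above that of all genes between maternal diets. There it was 0.12 against 0.05 in HF_LF against LF_LF, and 0.09 against 0.06 in HF_HF against LF_HF. Larger differences than over all genes were thus not particular to the post-weaning diet. The 18 genes were not matched with the others for intensity, and background can understate differences of dim genes. The part of brightness in these larger differences was not tested. Without adjustment, 8 of the 18 genes had a p under 0.05 in pups of HF dams, against 24.3% of all probes, and 9 had one in pups of LF dams, against 16.6%. Cyp2c55 is in both of these counts and is again not weighed against the shares.

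**Figure D2:**
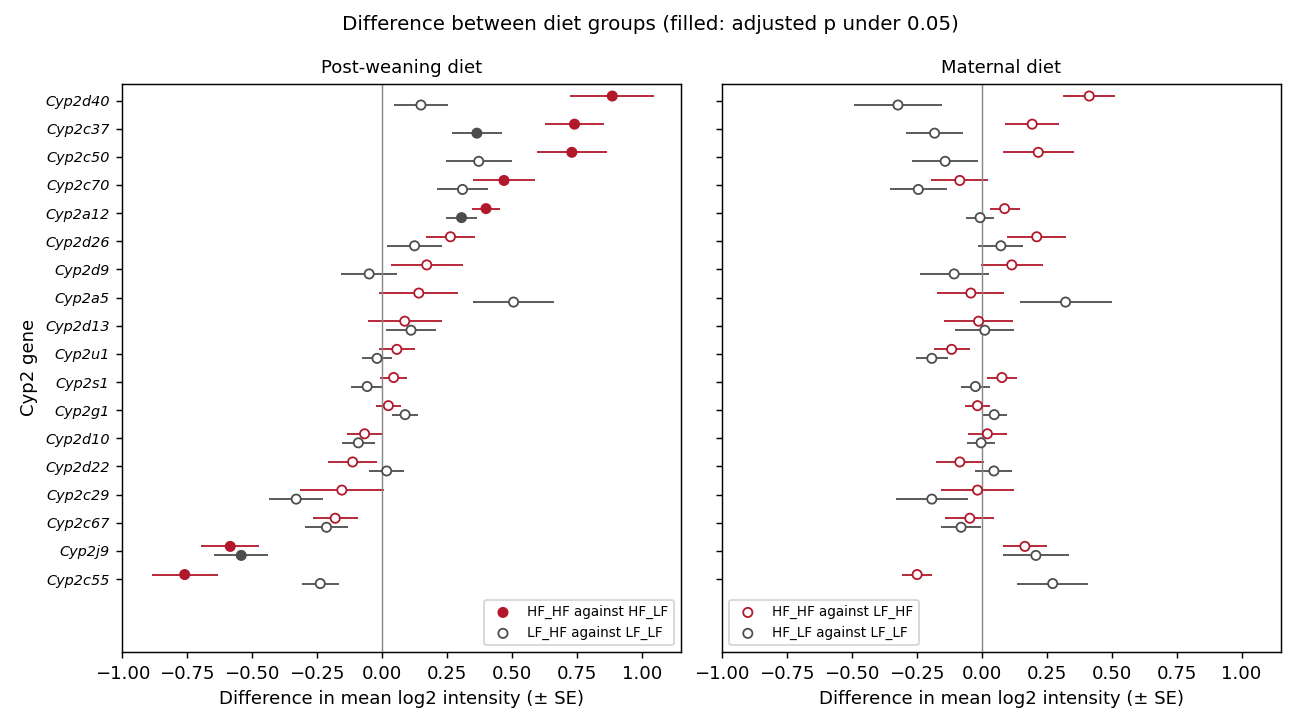
Difference in mean log2 intensity, with its SE, of the 18 Cyp2 genes tested, for the post-weaning diet (left) and the maternal diet (right). Filled points passed an adjusted p of 0.05: 7 for HF_HF against HF_LF, 3 for LF_HF against LF_LF, and none for either comparison of maternal diets.

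The Cyp2c subfamily held members that moved in opposite directions. Cyp2c37 and Cyp2c50, which in the mouse oxidize arachidonic acid to hydroxylated and epoxidized products, lie close together on chromosome 19. Cyp2c37 was at 5255, 6683 and 8677 in HF_HF livers (lowest, median and highest), against 2873, 3762 and 5771 in HF_LF livers. With LF dams Cyp2c37 was at 4244, 5967 and 6959 in LF_HF livers, against 3645, 4517 and 5531 in LF_LF livers. All 10 HF_HF mice were above the HF_LF mean and 7 were above the highest HF_LF mouse, while 6 of 8 LF_HF mice were above the highest LF_LF mouse and the other 2 were below the LF_LF mean. The log2 difference was 0.74 ± 0.11 (SE) for HF_HF against HF_LF, a 1.67-fold rise (limma, adjusted p = 0.000212), and 0.37 ± 0.10 for LF_HF against LF_LF, a 1.29-fold rise (limma, adjusted p = 0.0421). The call in pups of LF dams was weak: it was lost in 18 of 23 repeats that left out 1 mouse or 1 cage and with cage as a fixed block (adjusted p = 0.442). Within the 2 LF cages that held both diets the difference was 0.56 in cage 4 and 0.00 in cage 11. A second Cyp2c37 probe, almost as bright on average (5240 against 5243), passed in pups of HF dams (0.75; limma, adjusted p = 0.000819). That probe did not pass in pups of LF dams (0.32; limma, adjusted p = 0.0876).

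Cyp2c50 was at 3402, 5288 and 6697 in HF_HF livers, against 2140, 2778 and 4333 in HF_LF livers. It rose 1.66-fold, by 0.73 ± 0.14 on the log2 scale (limma, adjusted p = 0.0012). A second, far dimmer Cyp2c50 probe (mean 94) rose 1.26-fold, by 0.33 ± 0.08 (limma, adjusted p = 0.0131). That probe did not pass in pups of LF dams (0.13, limma, adjusted p = 0.421), and its background can understate a change. Its r with the brightest was 0.55 across the 36 livers, after group means were removed. On the brightest probe Cyp2c50 was at 2998, 4610 and 5498 in LF_HF livers, against 2244, 3174 and 4256 in LF_LF livers. In LF_HF against LF_LF the difference of 0.37 ± 0.13 did not pass (limma, adjusted p = 0.115), with 5 of 8 LF_HF mice above the highest LF_LF mouse. The difference passed in 1 of 23 repeats that left out 1 mouse or 1 cage, without cage 11 (0.54, adjusted p = 0.0391).

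The 2 genes also had nearly the same promoters, and their windows from RefSeq (build GRCm38.p6) are shown because these are the members that moved most closely together. Each line gives the 250 bases before the start site, 5′ to 3′, on the plus strand, at chr19:39992174-39992423 for Cyp2c37 and chr19:40089429-40089678 for Cyp2c50, with capitals where a base differs from the other window or has no partner in it.
Cyp2c37: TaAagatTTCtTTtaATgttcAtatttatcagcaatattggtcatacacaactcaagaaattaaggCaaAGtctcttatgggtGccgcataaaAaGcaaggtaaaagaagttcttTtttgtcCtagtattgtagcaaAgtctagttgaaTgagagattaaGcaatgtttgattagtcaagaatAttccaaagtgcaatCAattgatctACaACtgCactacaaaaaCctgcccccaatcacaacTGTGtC
Cyp2c50: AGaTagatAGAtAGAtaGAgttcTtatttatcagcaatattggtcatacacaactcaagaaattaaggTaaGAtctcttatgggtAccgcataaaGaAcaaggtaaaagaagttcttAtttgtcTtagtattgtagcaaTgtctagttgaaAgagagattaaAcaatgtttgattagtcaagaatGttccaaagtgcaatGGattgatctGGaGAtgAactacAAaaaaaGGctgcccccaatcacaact
Aligned end to end, 215 of 255 columns were identical, or 84.3%. In each window 35 of 250 bases are in capitals. The genes are close copies, and how far a probe of one also reads the other was not tested.

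Cyp2c70, the mouse enzyme that turns chenodeoxycholic acid into muricholic acid, was at 7292, 9647 and 13445 in HF_HF livers, against 5482, 7098 and 8995 in HF_LF livers. Pups of LF dams were at 8815, 9865 and 12714 in LF_HF livers, against 6540, 8855 and 10619 in LF_LF livers. Of the 10 HF_HF mice, 6 were above every HF_LF mouse, and all 8 LF_HF mice were above the LF_LF mean. The rise was 1.38-fold in HF_HF against HF_LF, 0.47 ± 0.12 on the log2 scale (limma, adjusted p = 0.0116). It lost its call without cage 23 (0.34, adjusted p = 0.136). For LF_HF against LF_LF the difference was 0.31 ± 0.10 (limma, adjusted p = 0.086). It passed in 2 of 23 repeats, without LF_LF replicate 6 (0.35, adjusted p = 0.0412) or without cage 4 (0.39, adjusted p = 0.0483).

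Cyp2c55, another arachidonic acid oxidase of the mouse, moved the opposite way. It was at 54.4, 62.1 and 71.0 in HF_HF livers, against 74.9, 93.8 and 177.5 in HF_LF livers, so every HF_HF mouse was below every HF_LF mouse. Such a separation held for 0.854% of all probes in this comparison, and for 2 of the 18 genes, the other being Cyp2a12. That of Cyp2c55 is counted but not weighed against this share, because the filter favours it. In LF_HF against LF_LF a separation held for 0.496% of probes and 0 of the 18 genes. The fall was 0.76 ± 0.13 on the log2 scale (ratio 0.591; limma, adjusted p = 0.000475). Its HF_HF livers all lay below 71.5, where probes without signal lie, so the size of the fall is uncertain, and the gene reached the filter through the LF-fed mice, all of which were at 74.9 or more. For pups of LF dams, Cyp2c55 was at 63.9, 71.2 and 87.8 in LF_HF livers, against 75.6, 83.0 and 106.6 in LF_LF livers. The difference of -0.24 ± 0.07 did not pass (limma, adjusted p = 0.0686), though 6 of 8 LF_HF mice were below the lowest LF_LF mouse. It passed in 1 of 23 repeats, without LF_HF replicate 3 (-0.27, adjusted p = 0.0275).

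The other Cyp2c genes tested did not pass on either maternal background. Cyp2c29, a mouse epoxygenase of arachidonic acid, was at 108, 149 and 199 in LF_HF livers, against 153, 203 and 240 in LF_LF livers. Its difference was -0.33 ± 0.11 (limma, adjusted p = 0.091), with 5 of 8 LF_HF mice below the lowest LF_LF mouse. Cyp2c29 passed in 3 of 23 repeats, without LF_HF replicate 3 (-0.38, adjusted p = 0.0454), LF_LF replicate 6 (-0.37, adjusted p = 0.0471) or cage 4 (-0.49, adjusted p = 0.0278). In pups of HF dams it was at 118, 144 and 249 in HF_HF livers, against 123, 154 and 318 in HF_LF livers, with heavy overlap. Cyp2c67 differed by -0.18 ± 0.09 in HF_HF against HF_LF and by -0.21 ± 0.08 in LF_HF against LF_LF (limma, adjusted p = 0.206 and 0.19). Cyp2c38, Cyp2c39, Cyp2c40 and Cyp2c65 lay below the filter, with means over all mice of 62.4 to 67.4.

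**Figure D3:**
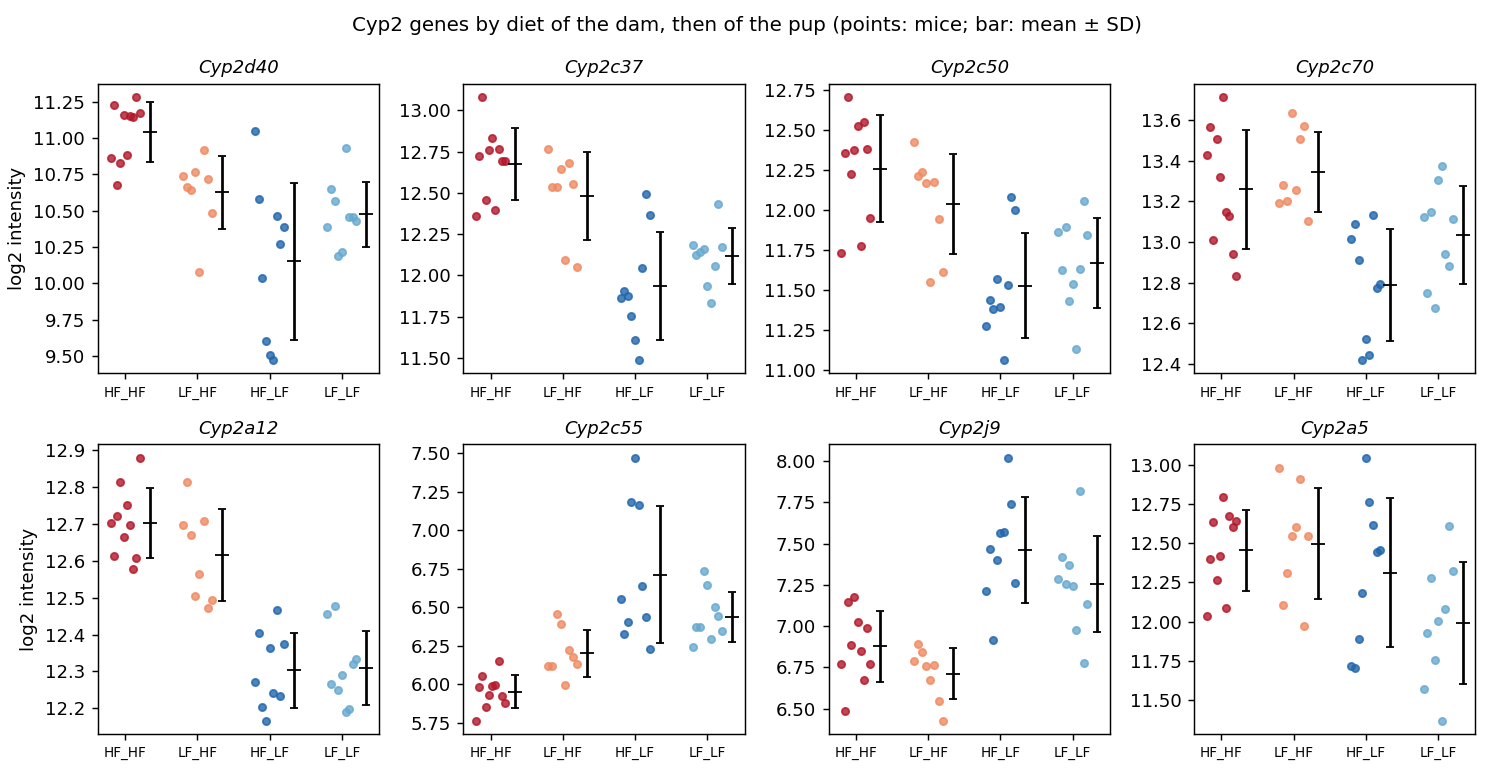
Log2 intensity of 8 Cyp2 genes in single mice, in HF_HF, LF_HF, HF_LF and LF_LF livers, with the group mean ± SD as a bar. Cyp2a12 and Cyp2c55 show no overlap between HF_HF and HF_LF mice. For Cyp2d40 and Cyp2c55 the HF_LF mice spread more than those of the other groups.

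Of the 6 Cyp2d genes tested, 1 passed. Members of this subfamily are known for the oxidation of steroids and of basic drugs. Cyp2d40 was at 1637, 2271 and 2492 in HF_HF livers, against 712, 1234 and 2113 in HF_LF livers. In pups of LF dams it was at 1083, 1653 and 1933 in LF_HF livers, against 1165, 1405 and 1950 in LF_LF livers. All 10 HF_HF mice were above the HF_LF mean and 6 were above the highest HF_LF mouse, while no LF_HF mouse was above the highest LF_LF mouse. The rise was 1.85-fold in HF_HF against HF_LF, 0.89 ± 0.16 on the log2 scale and the largest among the 18 genes (limma, adjusted p = 0.00107), and the difference was 0.15 ± 0.11 in LF_HF against LF_LF (limma, adjusted p = 0.526).

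HF_LF livers were themselves uneven in these genes. For Cyp2d40, HF_LF replicates 4, 5 and 6 were at 778, 730 and 712, below the other 6 mice of the group at 1049 to 2113. For Cyp2c55 the same 3 mice were at 145, 178 and 143, above the other 6 at 74.9 to 99.7. Replicates 5 and 6 came from cage 23 and replicate 4 from cage 1, whose other HF_LF mouse, replicate 3, was at 1049 for Cyp2d40 and 84.7 for Cyp2c55. Without cage 23 the difference between HF_HF and HF_LF was 0.75 for Cyp2d40 (adjusted p = 0.00747) and -0.59 for Cyp2c55 (adjusted p = 0.00351), so both kept their call.

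Cyp2d9, the testosterone hydroxylase of male mouse liver, was at 8677, 13229 and 15328 in HF_HF livers, against 7198, 12068 and 16129 in HF_LF livers. Its difference was 0.17 ± 0.14 (limma, adjusted p = 0.49), and it was -0.05 ± 0.11 in LF_HF against LF_LF (limma, adjusted p = 0.889). Cyp2d26 was at 4003, 5740 and 6377 in HF_HF livers, against 3576, 4598 and 5482 in HF_LF livers, with 5 of 10 HF_HF mice above every HF_LF mouse. Its difference of 0.26 ± 0.09 did not pass (limma, adjusted p = 0.0728). Cyp2d26 passed in 1 of 25 repeats that left out 1 mouse or 1 cage, without HF_HF replicate 7 (0.31, adjusted p = 0.0237). Of its 2 other probes the dimmest passed (0.27, adjusted p = 0.0376) and the next did not (0.21, adjusted p = 0.162). Both hardly tracked the brightest across the 36 livers, with r of 0.13 and 0.04 after group means were removed. Without LF_HF replicate 2 these r were 0.32 and 0.21. For Cyp2d10, Cyp2d13 and Cyp2d22 the differences lay between -0.11 and 0.11 in both comparisons and none passed, and Cyp2d13 is a transcribed pseudogene in RefSeq.

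Cyp2d12 lay below the filter and was left out of the main test, yet part of the HF-fed mice read above background in pups of both kinds of dam. It was at 63.5, 75.9 and 102.1 in HF_HF livers, against 60.9, 64.1 and 72.5 in HF_LF livers. It was at 66.4, 80.4 and 106.3 in LF_HF livers, against 61.5, 64.5 and 73.5 in LF_LF livers. Of the HF-fed mice, 6 of 10 in HF_HF and 6 of 8 in LF_HF were above every LF-fed mouse of the same maternal diet, while the groups otherwise overlapped at background. Cyp2d34, the other dim member, stayed between 56.6 and 68.2.

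Of the 2 Cyp2a genes tested, Cyp2a12 rose in both comparisons and Cyp2a5 passed in neither. Cyp2a12, which in the mouse hydroxylates bile acids and testosterone, was at 6116, 6652 and 7541 in HF_HF livers, against 4598, 4943 and 5657 in HF_LF livers, with no overlap. Among pups of LF dams it was at 5680, 6287 and 7198 in LF_HF livers, against 4675, 5014 and 5699 in LF_LF livers, with 7 of 8 LF_HF mice above every LF_LF mouse. The rise was 1.32-fold in pups of HF dams, 0.40 ± 0.05 on the log2 scale (limma, adjusted p = 4.55e-05), and 1.24-fold in pups of LF dams, 0.31 ± 0.06 (limma, adjusted p = 0.00541). Its spread within a group was small, with a coefficient of variation of 6.65% in HF_HF, 8.67% in LF_HF, 7.15% in HF_LF and 7.15% in LF_LF. Without cage 4 the call in pups of LF dams was lost (0.23, adjusted p = 0.0819).

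Cyp2a5, which oxidizes coumarin and nicotine, was far more variable. It was at 4011, 5978 and 8067 in LF_HF livers, against 2645, 4106 and 6247 in LF_LF livers. The difference of 0.51 ± 0.16 was the second largest in size of the 18 genes in that comparison but did not pass (limma, adjusted p = 0.0833). Cyp2a5 passed in 2 of 23 repeats that left out 1 mouse or 1 cage, without LF_LF replicate 8 (0.58, adjusted p = 0.031) or without cage 11 (0.72, adjusted p = 0.0164). In pups of HF dams it was at 4194, 5853 and 7098 in HF_HF livers, against 3342, 5567 and 8453 in HF_LF livers. There the difference was 0.14 ± 0.15 (limma, adjusted p = 0.635) and the HF_LF mice spanned the whole range of HF_HF mice. Its sign was not stable, at -0.19 with cage as a fixed block. Within cages 10 (1 HF_HF mouse), 20 (1 HF_LF mouse) and 23 the difference was 0.32, -0.18 and -0.47. Its 4 probes ranked the mice alike, with correlations of 0.83 to 0.88 between the brightest and the others across the 36 livers, after group means were removed. All 4 may also read Cyp2a4, a near copy, which was not tested.

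Promoters of 14 of the 18 genes were in the RefSeq windows (build GRCm38.p6), with Cyp2d13, Cyp2d22, Cyp2g1 and Cyp2u1 not among them, and 6 short motifs were searched on both strands in the 250 bases before each start. The letters TATAAA were in 10 of the 14, and in 12.4% of all 32851 windows. CAAAGTCC, letters found in sites of the liver factor HNF4A, were in Cyp2a5, Cyp2c67 and Cyp2c70, and in 1.2% of all windows. AGGTCA, a recognition sequence of nuclear receptors, was in Cyp2c29 and Cyp2c70 (14% of all windows), and GTTAAT, found in HNF1 sites, in Cyp2a5 and Cyp2d26 (6.43%). In Cyp2c70, AGGTCA lay 74 to 69 bases before the start and CAAAGTCC 64 to 57, so the 2 did not overlap. TTATGTAA and TTCNNNGAA were in none of the 14, and in 0.819% and 7.02% of all windows. The 130 bases before the start of the 3 genes with CAAAGTCC are shown because they hold both that motif and TATAAA, in capitals on either strand (TTTATA being TATAAA on the opposite one), and only Cyp2c70 of the 3 passed a test.
Cyp2a5, chr7:26835209-26835338, plus strand: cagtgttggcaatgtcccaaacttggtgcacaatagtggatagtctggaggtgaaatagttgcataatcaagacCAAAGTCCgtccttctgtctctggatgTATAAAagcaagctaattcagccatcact
Cyp2c67, chr19:39649043-39649172, minus strand: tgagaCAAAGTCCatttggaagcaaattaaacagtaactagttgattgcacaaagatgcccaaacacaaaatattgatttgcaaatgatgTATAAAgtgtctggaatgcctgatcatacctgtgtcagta
Cyp2c70, chr19:40187287-40187416, minus strand: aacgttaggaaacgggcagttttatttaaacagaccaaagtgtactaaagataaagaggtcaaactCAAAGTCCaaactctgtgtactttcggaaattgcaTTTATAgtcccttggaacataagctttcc
The start used for Cyp2c67 lies inside the gene span in RefSeq, whose 5′ edge is at 39649079, so the last bases of its window overlap that span. A match in these windows is a description of the letters and says nothing of binding in these livers.

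Cyp2j9, a mouse arachidonic acid hydroxylase best known from brain, was the member that fell in both comparisons. It was at 89.8, 116.9 and 144.6 in HF_HF livers, against 120.6, 176.9 and 259.9 in HF_LF livers. In pups of LF dams it was at 86.1, 108.5 and 118.7 in LF_HF livers, against 109.6, 153.1 and 225.8 in LF_LF livers. All 10 HF_HF mice and all 8 LF_HF mice were below the mean of the LF-fed mice of the same maternal diet. It fell by 0.58 ± 0.11 on the log2 scale in pups of HF dams (ratio 0.667; limma, adjusted p = 0.00144) and by 0.54 ± 0.10 in pups of LF dams (ratio 0.687; limma, adjusted p = 0.00505). In pups of LF dams the call was lost without cage 8 (-0.51, adjusted p = 0.0514). Cyp2j5, Cyp2j6, Cyp2j11 and Cyp2j13 lay below the filter, with means of 59.6 to 63.3.

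No single member of the remaining subfamilies passed. Cyp2g1, known from the olfactory epithelium, Cyp2s1, an enzyme of epithelia, and Cyp2u1, a fatty acid hydroxylase, had differences between -0.06 and 0.09 in the 2 comparisons of post-weaning diet, and none passed. In the Cyp2b subfamily, which responds to phenobarbital-like compounds through the receptor CAR, single mice stood out above a flat background. Cyp2b9, whose transcripts are known to be more abundant in female mice, read 187.6 in HF_HF replicate 1, 164.7 in HF_HF replicate 6, 171.8 in LF_HF replicate 1 and 129.2 in LF_LF replicate 8, while the group medians lay between 67.2 and 76.2. Cyp2b13 was highest in 2 of these mice, at 85.4 in HF_HF replicate 1 and 96.8 in LF_HF replicate 1, with group medians of 59.7 to 64.1. Cyp2b10 read 58.7 to 72.4 in all 36 livers on its brightest probe, and 151.0 in HF_LF replicate 6 on its other probe, where the HF_LF median was 59.6.

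The calls for the post-weaning diet were also examined with cage in the fit. With cage as a fixed block, which compares diets within the cages that held both (12 mice in 3 cages of HF dams, 9 mice in 2 cages of LF dams), all 7 genes kept their call in HF_HF against HF_LF, with adjusted p between 0.00034 and 0.0134. In LF_HF against LF_LF all 3 calls were lost, with adjusted p of 0.0968 for Cyp2a12, 0.442 for Cyp2c37 and 0.0747 for Cyp2j9. The Cyp2a12 difference was 0.36, 0.24 and 0.41 within cages 10, 20 and 23 of HF dams, and 0.50 and 0.16 within cages 4 and 11 of LF dams. The Cyp2j9 difference was -0.57, -1.0 and -0.73 in those 3 cages, and -0.33 and -0.47 in those 2. Cyp2d40 was uneven, at 0.05, 0.60 and 1.42 within cages 10, 20 and 23. Cage 10 held 1 HF_HF mouse and cage 20 held 1 HF_LF mouse, so their values for all these genes rest on a single mouse on 1 side. With 1 mean per cage and group, Cyp2a12, Cyp2c37, Cyp2c55 and Cyp2j9 kept their call in HF_HF against HF_LF (adjusted p of 0.014 to 0.0319), and Cyp2c50, Cyp2c70 and Cyp2d40 lost it (0.0568 to 0.0901).

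**Figure D4:**
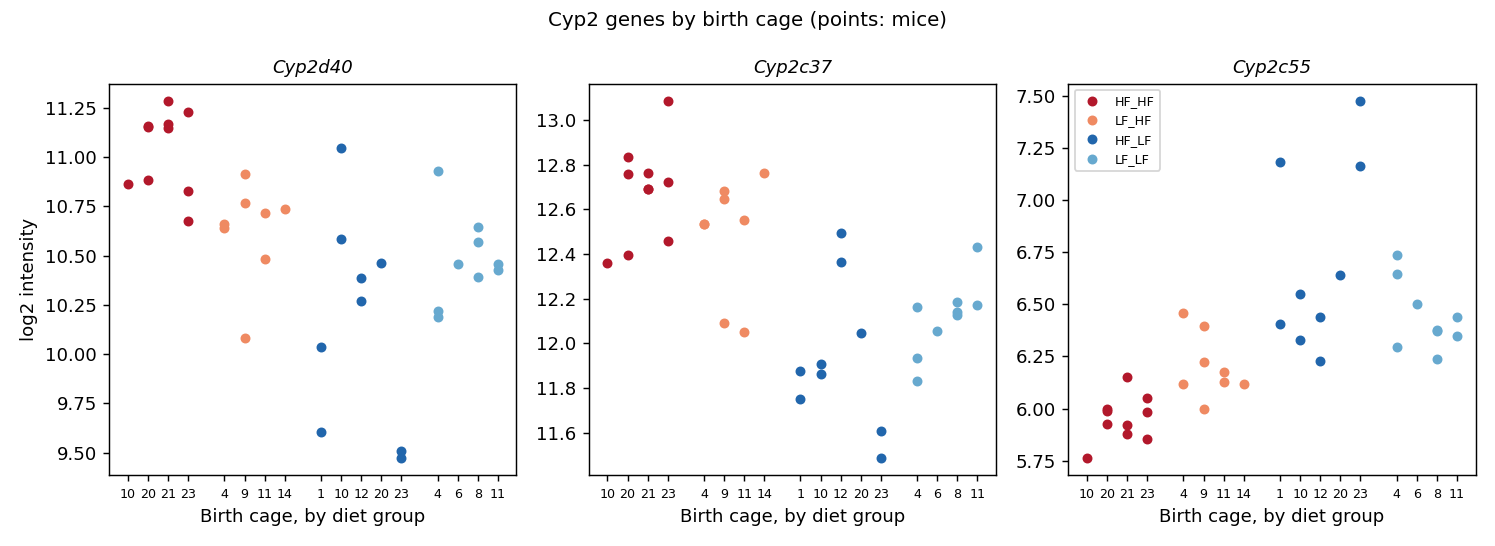
Log2 intensity of Cyp2d40, Cyp2c37 and Cyp2c55 in single mice, by birth cage within HF_HF, LF_HF, HF_LF and LF_LF. The 2 HF_LF mice of cage 23 were the lowest of the 36 for Cyp2d40 and Cyp2c37, and 1 of them was the highest for Cyp2c55.

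The diet of the dam moved no Cyp2 gene past the threshold. For HF_HF against LF_HF, 0 of 18 genes passed in limma, where 0.0732% of all probes rose and 0.195% fell, 0.269% together. The groups were fully separated for 0.0651% of probes and for 0 of the 18 genes, and 2 genes had an unadjusted p under 0.05, against 11% of probes. The 2 were Cyp2c55, at 54.4, 62.1 and 71.0 in HF_HF livers against 63.9, 71.2 and 87.8 in LF_HF livers, and Cyp2d40, at 1637, 2271 and 2492 in HF_HF livers against 1083, 1653 and 1933 in LF_HF livers. Their differences were -0.25 ± 0.06 (limma, adjusted p = 0.0725) and 0.41 ± 0.10 (limma, adjusted p = 0.0829). Cyp2c55 passed in 1 of 26 repeats that left out 1 mouse or 1 cage, without HF_HF replicate 8 (-0.27, adjusted p = 0.0419). All its HF_HF livers and its LF_HF median lay below 71.5, where probes without signal lie, so the size of its difference is uncertain. Cyp2d26 had an unadjusted p under 0.05 on its 2 dimmer probes only, and neither passed (0.37 and 0.31; limma, adjusted p = 0.198 and 0.333). For HF_LF against LF_LF, 0 of 18 genes passed, as did 0% of all probes, and the groups were fully separated for 0 of the 18 and for 0.0244% of probes, while 6.53% of probes and 2 of the genes had an unadjusted p under 0.05. Those were Cyp2u1, with a difference of -0.19 ± 0.06 (limma, adjusted p = 0.50), and Cyp2c70, with -0.24 ± 0.11 (limma, adjusted p = 0.745). Each maternal comparison shares its mice with the post-weaning ones.

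Whether the response to the HF diet differed between pups of HF and of LF dams was tested as an interaction of both diets. In limma 0 of 18 genes and 0% of all probes passed, while 3 genes and 6.31% of probes had an unadjusted p under 0.05. The difference of differences was 0.74 ± 0.21 for Cyp2d40 (limma, adjusted p = 0.558), -0.52 ± 0.16 for Cyp2c55 (limma, adjusted p = 0.63) and 0.38 ± 0.16 for Cyp2c37 (limma, adjusted p = 0.705). The larger changes of Cyp2d40 and Cyp2c55 in pups of HF dams are therefore not shown to differ from those in pups of LF dams. For Cyp2c55 the size is also uncertain, because all its HF_HF livers lay below 71.5.

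Among genes that work with the family, single members passed, in a comparison where 5.15% of all probes rose and 6.11% fell. Of 7 genes of electron supply and heme synthesis 5 were tested, and 1 fell in HF_HF against HF_LF: Alas1, the rate-limiting enzyme of heme synthesis, by 0.35 ± 0.09 on the log2 scale (limma, adjusted p = 0.0189). Of the 2 epoxide hydrolases, which open the epoxides that P450 enzymes make, Ephx1 fell by 0.83 ± 0.19 (limma, adjusted p = 0.00533). Among 4 other xenobiotic P450 genes tested, Cyp1a2 rose by 0.56 ± 0.13 and Cyp3a13 by 0.50 ± 0.14, and Cyp3a11 fell by 1.54 ± 0.27 (limma, adjusted p of 0.00606, 0.0192 and 0.000841). In LF_HF against LF_LF, Cyp1a2 rose by 0.72 ± 0.11 and Cyp3a11 fell by 0.97 ± 0.20 (limma, adjusted p of 0.00125 and 0.00731), and no gene of the other pathway lists passed. Of 5 other genes of arachidonic acid metabolism tested, Hpgd, which inactivates prostaglandins, fell by 0.38 ± 0.12 in HF_HF against HF_LF (limma, adjusted p = 0.0446).

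Of 17 receptors and factors tested that are known to act on Cyp2 genes, 4 rose and 2 fell in HF_HF against HF_LF, where 5.15% of all probes rose and 6.11% fell, and 0 passed in LF_HF against LF_LF. Bcl6, a repressor known to oppose STAT5 at liver genes, rose by 1.13 ± 0.26 (limma, adjusted p = 0.00727). Esr1, the estrogen receptor, rose by 0.37 ± 0.08 and Cebpb, a factor of the acute phase response, by 0.38 ± 0.09 (limma, adjusted p of 0.00521 and 0.0104). Ppargc1a, a coactivator of the fasting response, fell by 0.43 ± 0.10 (limma, adjusted p = 0.00937).

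Acute phase genes and pericentral markers also differed between these groups. Of 11 acute phase genes tested, 9 rose in HF_HF against HF_LF, where 5.15% of all probes rose. Their median difference was 1.22 on the log2 scale. Their summed intensity was 75405 to 181438 in HF_HF livers, highest in replicate 1, against 69076 to 99654 in HF_LF livers. In LF_HF against LF_LF 0 of 11 passed, but all 11 differences were above 0, with a median of 0.94 against 0.00 over all genes, and with sums of 74807 to 134273 in LF_HF livers and 67289 to 120973 in LF_LF livers. In HF_HF against LF_HF 0 of 11 passed and 10 were above 0, with a median of 0.63 against -0.01 over all genes. Of 9 pericentral hepatocyte markers tested, 4 rose in HF_HF against HF_LF and 2 in LF_HF against LF_LF, Cyp1a2 and Slc1a2 in both. Over all probes 5.15% rose in the first comparison and 1.77% in the second. In the first, 6 pericentral differences were above 0 and 3 below, and in the second 7 and 2. Of 7 periportal markers tested, 1 rose in each comparison. The pericentral sum was 35403 to 48177 in HF_HF livers against 32974 to 39493 in HF_LF livers. It was 34633 to 43420 in LF_HF livers against 31017 to 39999 in LF_LF livers. Of 9 endothelial markers 1 fell in HF_HF against HF_LF, with sums of 4300 to 6280 in HF_HF livers and 5294 to 6912 in HF_LF livers, and of 7 stellate cell markers 1 fell, with sums of 4304 to 6137 in HF_HF livers and 5307 to 6271 in HF_LF livers. Over all probes 6.11% fell, so 1 marker in either list is not set apart from the background. All 9 endothelial differences were below 0, with a median of -0.15. The part of any of these lists in the Cyp2 differences was not tested.

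Cyp2 genes also varied together among mice of the same group. For each of the 153 pairs of the 18 genes, deviations from the group means were correlated over the 36 mice, with p-values from 100000 permutations of mice within groups, of which the smallest possible is 1e-05. After Benjamini-Hochberg adjustment 12 pairs passed, all of them positive. The median r was 0.25 for the 31 pairs of 1 subfamily and 0.07 for the 122 other pairs, given as a description. Cyp2c37 and Cyp2c50 had the highest correlation, with r = 0.88 and rho = 0.85 (permutation, adjusted p = 0.00051 and 0.000765), r = 0.85 without the 2 mice farthest from the median, and r = 0.80 within cages. Within single groups their r was 0.87 in HF_HF, 0.94 in LF_HF, 0.92 in HF_LF and 0.84 in LF_LF.

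The 12 pairs were 2 of the 15 between Cyp2c genes, 4 of the 15 between Cyp2d genes and 6 of the 36 between a Cyp2c and a Cyp2d gene. Cyp2d10 and Cyp2d22 had r = 0.75 and rho = 0.74 (permutation, adjusted p = 0.00051 and 0.000765), with r = 0.67 without the 2 farthest mice and r = 0.60 within cages. Cyp2d9 and Cyp2d10 had r = 0.66 and rho = 0.71 (permutation, adjusted p = 0.00115 and 0.00102), with r = 0.59 without the 2 farthest mice and r = 0.75 within cages. The Cyp2d genes are related in sequence, and how far these probes also read each other's transcripts was not tested. Across the subfamilies, Cyp2c37 and Cyp2d9 had r = 0.71 and rho = 0.64 (permutation, adjusted p = 0.00051 and 0.00383), but within cages r was 0.47 and no longer passed (permutation, adjusted p = 0.497). Cyp2d40 and Cyp2d9 had r = 0.59 and rho = 0.52 (permutation, adjusted p = 0.0238 and 0.0517), and within cages r was 0.26. When deviations were taken from the mean of each cage and group, 4 pairs passed. From the 12 these were Cyp2c37 with Cyp2c50, and Cyp2d10 with Cyp2d22 and with Cyp2d9. The other was Cyp2c29 with Cyp2c55, 2 dim genes not among the 12. Their r was 0.75 within cages (permutation, adjusted p = 0.0402), against 0.34 in the main setting (permutation, adjusted p = 0.38) and 0.20 without the 2 farthest mice.

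**Figure D5:**
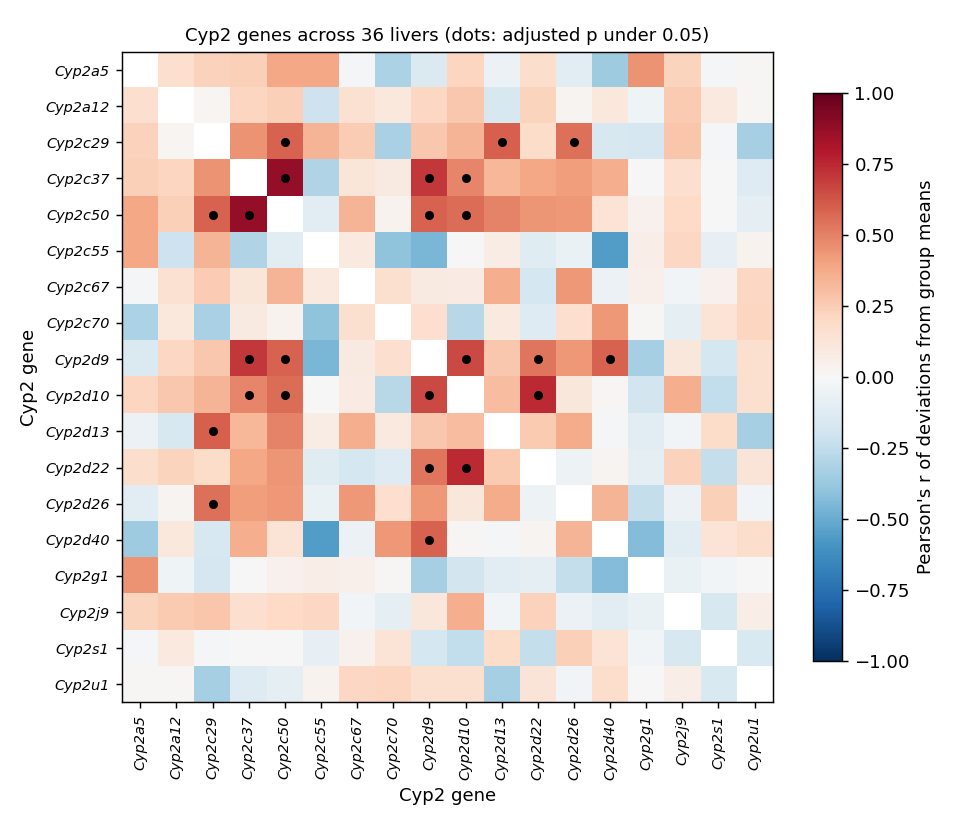
Pearson's r between the 18 Cyp2 genes tested, from deviations of log2 intensity from the group means over 36 livers, ordered by subfamily. Dots mark the 12 pairs with an adjusted p under 0.05, of which Cyp2c37 with Cyp2c50 has the highest r at 0.88.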

How the data were processed

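Liver RNA of 36 mice was hybridized by the authors to Illumina MouseRef-8 v2.0 beadchips, with BeadStudio as the 1 tool in the submitters' processing notes. The deposited values are linear intensity readings, quantile-normalized by the authors, from 45.7 to 32949, without background subtraction, and no further normalization was applied before log2. Precision is limited by how many arrays a group has. Of 25697 probes, 12289 with a median of at least 71.5 were kept. Each gene was represented by its brightest probe, chosen over all mice, and 48 probes represent the 34 Cyp2 genes. Pairs of groups were compared with limma 3.58.1 (R 4.3.3; lmFit, eBayes with a trend) on the mice of both groups, adjusted by Benjamini-Hochberg over the 12289 probes at 5%, and the interaction was fitted on all 4 groups. The fits were tested on simulated data. Alternatives were other filters, fits, probes and background, cage as a block (statmod 1.5.0; the correlation within cages was 0.00829 to 0.0795), and leaving out mice or cages. The genes named are all Cyp2 genes, and up to 4 members past the threshold of each pathway list and comparison by lowest p. Members and lists were chosen with earlier results of these data known. The study describes 40 mice, of which 36 were analysed here.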

Additional observations from a re-analysis of the deposited data

Results flagged for a closer look

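A mouse far from the rest of its group was found in 5 of the 72 sets of values examined (18 Cyp2 genes in 4 groups), and chance gives such a mouse in about 1 in 20 sets. Cyp2d10 was at 6160 in HF_HF replicate 1, below the next lowest HF_HF mouse at 7982, and that mouse also had the highest summed acute phase level of the 36, at 181438. Cyp2c67 was lowest in HF_LF replicate 9, at 5370 against 6356 in the next mouse, and Cyp2d22 was highest in the same mouse, at 6638 against 5239. Cyp2g1 was highest in HF_HF replicate 6, at 84.6 against 77.6. Cyp2s1 was highest in LF_LF replicate 3, at 100.1 against 82.4. None of these genes passed in any comparison.

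Cyp2d12, which the main test did not use because it was too dim, was above every LF-fed mouse of the same maternal diet in 6 of 10 HF_HF mice and 6 of 8 LF_HF mice, and within their range in the others. When all 25697 probes were tested, its log2 difference was 0.29 ± 0.08 (SE) in HF_HF against HF_LF (limma, adjusted p = 0.0349) and 0.33 ± 0.07 in LF_HF against LF_LF (limma, adjusted p = 0.0225). The medians of 64.1 in HF_LF livers and 64.5 in LF_LF livers lay below 71.5, where probes without signal lie, so the size of these differences is uncertain.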

How the results depend on the processing

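No reversal of direction was found among the differences and correlations that passed under any setting. In HF_HF against HF_LF, 5 genes rose and 2 fell, and leaving out single mice or cages gave 4 to 6 that rose and 2 that fell, while 1 mean per cage and group gave 2 that rose. In LF_HF against LF_LF, 2 rose and 1 fell. All 4 groups in 1 fit, or the dimmest kept probe, left 1 that rose, and 1 mean per cage and group or cage as a fixed block left 0 that rose and 0 that fell. Testing all probes without the filter kept 2 that rose, but Cyp2c37 lost its call (0.37, adjusted p = 0.0583) and Cyp2d12 was added. Leaving out single mice or cages there gave 1 to 4 that rose and 0 to 3 that fell. For the maternal diet the counts stayed at 0, except for 0 to 1 that fell in HF_HF against LF_HF when single mice or cages were left out, and the interaction stayed at 0. Of the 153 correlations 12 passed, and 4 did with deviations from cage and group means, of which Cyp2c29 with Cyp2c55 was not among the 12. Cage as a random block, no trend and another background correction (normexp with an offset of 16) changed no call of a Cyp2 gene. No paired analysis was possible by replicate number because the labels give none, and pairing mice by birth cage is the fixed block given above. On LF_HF replicate 2, single probes read low where the brightest probe of the gene did not: Cyp2a5 read 695 on 1 probe and 4411 on its brightest, and Cyp2d26 read 1229 and 5837.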
